A study of Mus musculus with 6 samples.

Results

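The genes described are 41 genes of S phase, the part of the cell cycle in which DNA is copied. They comprise the replicative helicase, origin factors, DNA polymerases and their sliding clamp, enzymes that supply deoxynucleotides, and genes of homologous recombination and of the Fanconi anemia pathway. The members were given as a fixed list of gene symbols. All 41 were found among the 23224 genes of the deposited table, and all 41 were among the 13223 genes left by a filter on low counts. They were followed in dendritic cells (DC) sorted from subcutaneous MC57-SIY tumors of C57BL/6 mice on day 7 after implantation, with 6 bulk RNA-seq libraries in 3 groups of 2. The tumor line derives from a mouse fibrosarcoma and carries SIY, a model peptide antigen for CD8+ T cells. The 3 groups were CD103+ DC1 from Rag2-/- hosts (replicates 2 and 3), ISG+ DC from Rag2-/- hosts (replicates 2 and 3) and ISG+ DC from WT hosts (replicates 1 and 2). Every group carried the same tumor line and the same day of harvest, and no drug or other agent is named in the labels. Tumors were pooled, and the labels do not say how many mice made a pool. Rag2-/- mice cannot rearrange antigen receptor genes and lack mature T and B cells, while they keep DC, macrophages and NK cells. The gate that defines ISG+ DC is not stated in the labels. No CD103+ DC1 from WT hosts were analysed here, so the 3 groups do not form a full cross of population and host.

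Replication begins when the origin recognition complex, CDC6 and CDT1 load the ring of MCM2 to MCM7 onto DNA in G1. In S phase CDC45 and the GINS complex turn that ring into the active helicase, polymerase alpha and primase start each strand, and polymerases delta and epsilon extend it on the PCNA clamp. Much of this machinery is transcribed by E2F factors as cells leave G1, and the recombination genes BRCA1, BRCA2 and RAD54L protect and restart forks that stall. Conventional DC are known to keep dividing at a low rate in tissues, and DC1 are the subset specialised in cross-presentation.

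The promoters are shown first, because E2F factors are the known regulators of these genes and most members followed 1 order of the groups. RefSeq promoter windows (GRCm38.p6, 250 bases before to 50 bases after a gene's start) were found for 34 of the 41 members, as 40 windows. Mcm4, Gins1, Gins2, Pole, Fancd2, Exo1 and Ccne2 had no entry in that table. Below are 170 bases before the start, read 5′ to 3′ on the strand of the gene, for 4 members with E2F-type letters and for Mcm10 and Brca1, which have none there and which fell steeply in the values that follow. Capitals mark E2F-type letters (TTTCCCGC, TTTGGCGC, TTTCGCGC or TTTGCCGC on either strand) and CCAAT on either strand, the letters of the NF-Y box. The windows lie at chr8:75109339-75109508 (Mcm5, plus strand), chr1:128359706-128359875 (Mcm6, minus strand), chrX:93632156-93632325 (Pola1, minus strand), chr5:150522451-150522620 (Brca2, plus strand), chr2:5012792-5012961 (Mcm10, minus strand) and chr11:101551956-101552125 (Brca1, minus strand).
Mcm5: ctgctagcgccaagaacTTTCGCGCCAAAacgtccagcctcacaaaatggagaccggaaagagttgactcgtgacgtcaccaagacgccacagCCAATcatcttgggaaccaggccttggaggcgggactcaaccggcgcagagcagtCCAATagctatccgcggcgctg
Mcm6: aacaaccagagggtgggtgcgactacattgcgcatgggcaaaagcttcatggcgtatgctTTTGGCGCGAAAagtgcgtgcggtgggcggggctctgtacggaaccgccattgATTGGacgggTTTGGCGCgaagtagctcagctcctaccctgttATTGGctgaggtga
Pola1: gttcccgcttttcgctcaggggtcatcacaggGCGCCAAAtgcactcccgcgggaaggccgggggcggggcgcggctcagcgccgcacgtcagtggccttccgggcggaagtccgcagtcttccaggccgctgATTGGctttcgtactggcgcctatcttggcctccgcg
Brca2: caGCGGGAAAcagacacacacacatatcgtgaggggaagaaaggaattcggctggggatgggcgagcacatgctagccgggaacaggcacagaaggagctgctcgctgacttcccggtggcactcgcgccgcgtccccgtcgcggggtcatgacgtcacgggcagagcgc
Mcm10: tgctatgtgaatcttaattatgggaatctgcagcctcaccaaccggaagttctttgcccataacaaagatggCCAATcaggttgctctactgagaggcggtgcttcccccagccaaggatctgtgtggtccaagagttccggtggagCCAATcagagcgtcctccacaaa
Brca1: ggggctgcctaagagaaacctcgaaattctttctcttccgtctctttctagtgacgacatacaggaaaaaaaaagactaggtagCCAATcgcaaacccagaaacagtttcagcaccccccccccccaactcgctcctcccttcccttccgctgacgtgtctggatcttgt

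In Mcm5 and in the first match of Mcm6 an E2F-type match on one strand overlaps another on the opposite strand, and both are inside 1 run of capitals. E2F-type letters stood in 13 of the 40 member windows (32.5%), against 2.26% of all 32851 windows in the table and 3.8% of the 11897 windows of genes tested. The CCAAT letters stood in 23 member windows (57.5%), against 37.4% of all windows and 38.0% of those of tested genes. The letters TTTGAA, known as the CHR element of genes expressed in G2 and mitosis, stood in 3 member windows (7.5%), against 17.9% and 12.5%. These are matches of letters, and binding was not measured. In the comparison of WT ISG+ DC with CD103+ DC1 described later, 6 of the 13 genes with the letters fell, with a median log2 fold change of -1.66, and 10 of the 21 genes without them fell, with a median of -1.79. Of the 7 members with no window 3 fell, with a median of -2.67. In that comparison edgeR called 3.62% of all genes tested lower. The difference between these sets of members was not tested.

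Values below are CPM, a count scaled to a common library size with TMM factors, given library by library in the order CD103+ DC1 replicates 2 and 3, Rag2-/- ISG+ DC replicates 2 and 3, and WT ISG+ DC replicates 1 and 2. A log2 fold change is given with its standard error and an adjusted p from edgeR, taken over all 13223 genes, and a gene is said to have fallen or risen where that p was under 0.05. The labels state that the experiment was repeated independently, so the p-values measure the spread between libraries of pooled tumors. Library totals ran from 6023510 estimated counts (CD103+ DC1 replicate 3) to 15368616. In a bulk sample, fewer cells in S phase and less of a transcript per cell cannot be told apart. Rag2, the gene that separates the hosts, was counted 39 and 11 times in CD103+ DC1, 40 and 2 times in ISG+ DC labelled Rag2-/- and 0 times in both ISG+ DC libraries labelled WT. The labels do not say which part of the gene was deleted, so these estimated counts check nothing, and directions between hosts depend on the labels as given. Markers of DC1 followed the CD103+ DC1 label. Itgae, which encodes CD103, had 324 and 423 CPM in CD103+ DC1 and at most 7.00 CPM in the other 4 libraries. The 9 DC1 markers together had 8282 and 4686 CPM against 615 to 1154. ISG+ DC carried the CD11b+ DC markers. Within Rag2-/- hosts all 6 of 6 were higher than in CD103+ DC1 in edgeR, against 2.83% of all genes tested. There 7 of 9 macrophage and monocyte markers were higher too. The ISG+ label itself was not checked with markers.

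Summed over the 41 members, CD103+ DC1 had 2449 and 2809 CPM, Rag2-/- ISG+ DC 1307 and 1716 CPM, and WT ISG+ DC 760 and 628 CPM. The 3 groups did not overlap, and their means ± SD (n = 2) were 2629 ± 254, 1512 ± 289 and 694 ± 93.4 CPM. By role, the mean sums ± SD in that order of groups were 825 ± 65.4, 585 ± 99.6 and 252 ± 37.0 CPM for the 6 MCM2 to MCM7 genes and 273 ± 42.2, 161 ± 16.1 and 49.0 ± 13.3 CPM for the 8 recombination and Fanconi genes. The 4 genes of S phase entry and checkpoint had 61.7 ± 4.16, 54.2 ± 19.7 and 14.8 ± 8.91 CPM, so their Rag2-/- groups lay close together. Single members mostly followed the same order. In 34 of 41 (82.9%) the group mean was highest in CD103+ DC1, intermediate in Rag2-/- ISG+ DC and lowest in WT ISG+ DC, an order seen in 24% of the genes tested. In 20 members (48.8%) both steps were also free of overlap between libraries, against 4.99% of the genes tested. The 7 members outside the order were Cdt1, Gins1, Gins2, Fancd2, Blm, Chek1 and E2f1.

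**Figure D1:**
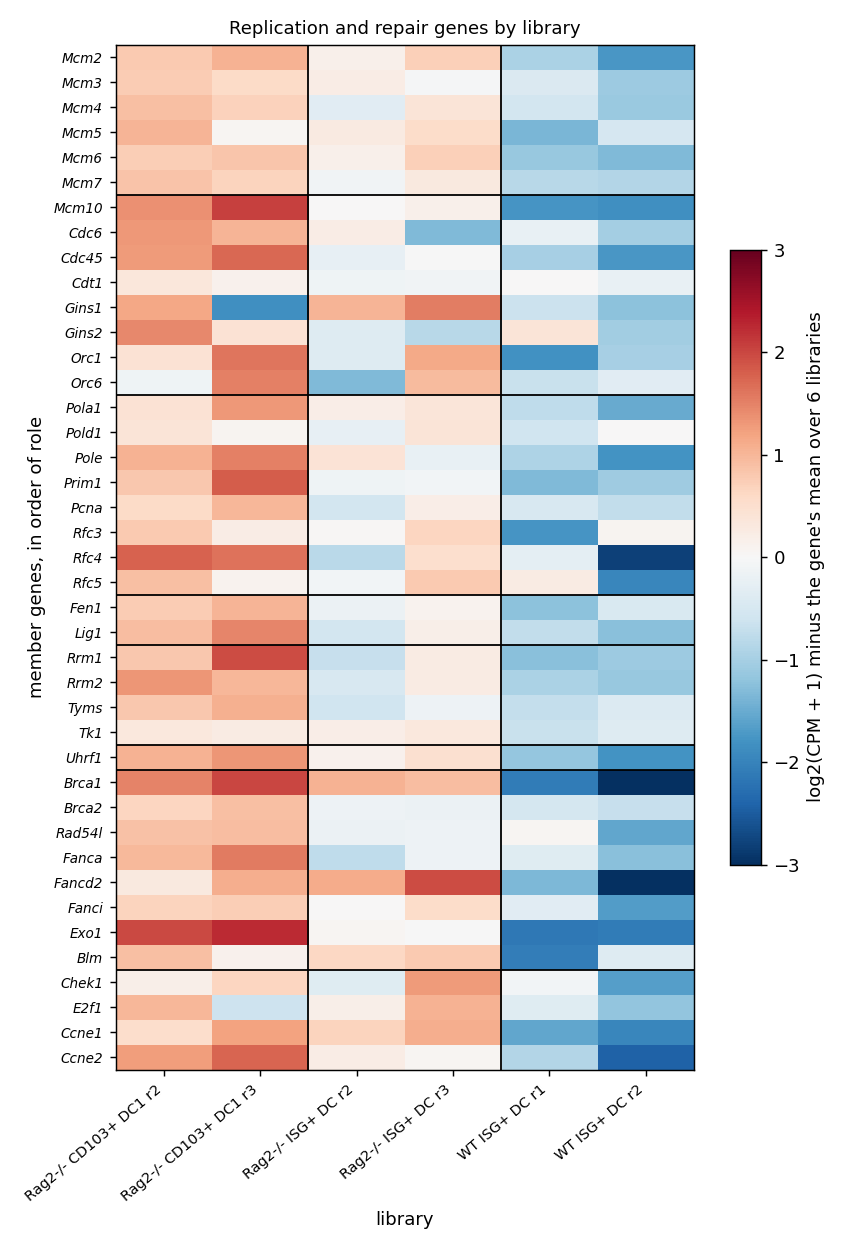
Level of each of the 41 members (rows, grouped by role with lines between roles) in each of the 6 libraries (columns), as log2(CPM + 1) minus the gene's mean over the 6 libraries; red is above and blue below that mean, and values past the ends of the colour bar take its end colour. CD103+ DC1 columns are mostly red and WT ISG+ DC columns mostly blue, with 34 of 41 members in the order CD103+ DC1, Rag2-/- ISG+ DC, WT ISG+ DC by group mean.

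The design allows 3 comparisons. The first sets ISG+ DC against CD103+ DC1 within Rag2-/- hosts, the second sets WT against Rag2-/- hosts within ISG+ DC, and the last sets WT ISG+ DC against Rag2-/- CD103+ DC1, where host and population change together and cannot be told apart. Each pair of comparisons shares a group of libraries, and in the fit the last is the sum of the other two, so their values are given side by side and none supports another.

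Between the populations in Rag2-/- hosts no member passed the test: 0 of 41 were lower and 0 were higher in ISG+ DC by edgeR, while 0.862% of all genes tested were called lower and 2.83% higher. At an unadjusted p under 0.05 in edgeR 12 members were lower and 0 higher, against 6.11% and 8.8% of all genes. DESeq2 called 6 members lower and 0 higher, against 3.02% and 5.13% of all genes, and limma voom 3 lower and 0 higher, against 1.75% and 2.83%. The median log2 fold change of the members was -0.75, against -0.02 for all genes tested, and 36 of 41 were below 0. The libraries of the populations did not overlap, with ISG+ DC lower, in 28 members (22% of all genes tested), and in 1 member, Fancd2, they did not overlap with ISG+ DC higher (23.9% of all genes tested). Without CD103+ DC1 replicate 2 edgeR called 5 members lower, in a fit that called 5.48% of all genes lower.

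Between the hosts, 2 of 41 members fell in WT ISG+ DC by edgeR, Brca1 and Mcm6, and 0 rose, against 0.265% and 0.287% of all genes tested. At an unadjusted p under 0.05 in edgeR 18 members were lower and 0 higher, against 5.32% and 4.56% of all genes. DESeq2 called 8 members lower and 0 higher, against 2.13% and 2% of all genes, and limma voom 3 lower and 0 higher, against 0.734% and 1.72%. The members' median was -1.27, against -0.03 for all genes, and 39 of 41 were below 0. Libraries did not overlap, with WT lower, in 28 members (23.1% of all genes tested). The count by edgeR was 4 without WT ISG+ DC replicate 1, where 0.981% of all genes were called lower. It was 1 without WT ISG+ DC replicate 2 (0.298% of all genes), without Rag2-/- ISG+ DC replicate 2 (0.105%) or without Rag2-/- ISG+ DC replicate 3 (0.237%).

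Between WT ISG+ DC and Rag2-/- CD103+ DC1, 19 of 41 members fell by edgeR and 0 rose, against 3.62% and 5.52% of all genes tested. At an unadjusted p under 0.05 in edgeR 27 were lower and 0 higher, against 10.7% and 11.2% of all genes. DESeq2 called 25 members lower and 0 higher, against 7.58% and 8.16% of all genes, and limma voom 18 lower and 0 higher, against 3.65% and 5.32%. All 41 log2 fold changes were below 0, from -6.02 to -0.36, with a median of -1.79 against -0.03 for all genes. Libraries did not overlap, with WT ISG+ DC lower, in 38 members (25.7% of all genes tested). Without WT ISG+ DC replicate 2 the count was 12, of which 11 were among the 19, and 2.19% of all genes were called lower. Of the 19, Mcm2, Mcm6, Mcm10, Cdc45, Pole, Lig1, Rrm1, Uhrf1 and Brca1 were called in each of the 10 alternative analyses of that comparison.

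**Figure D2:**
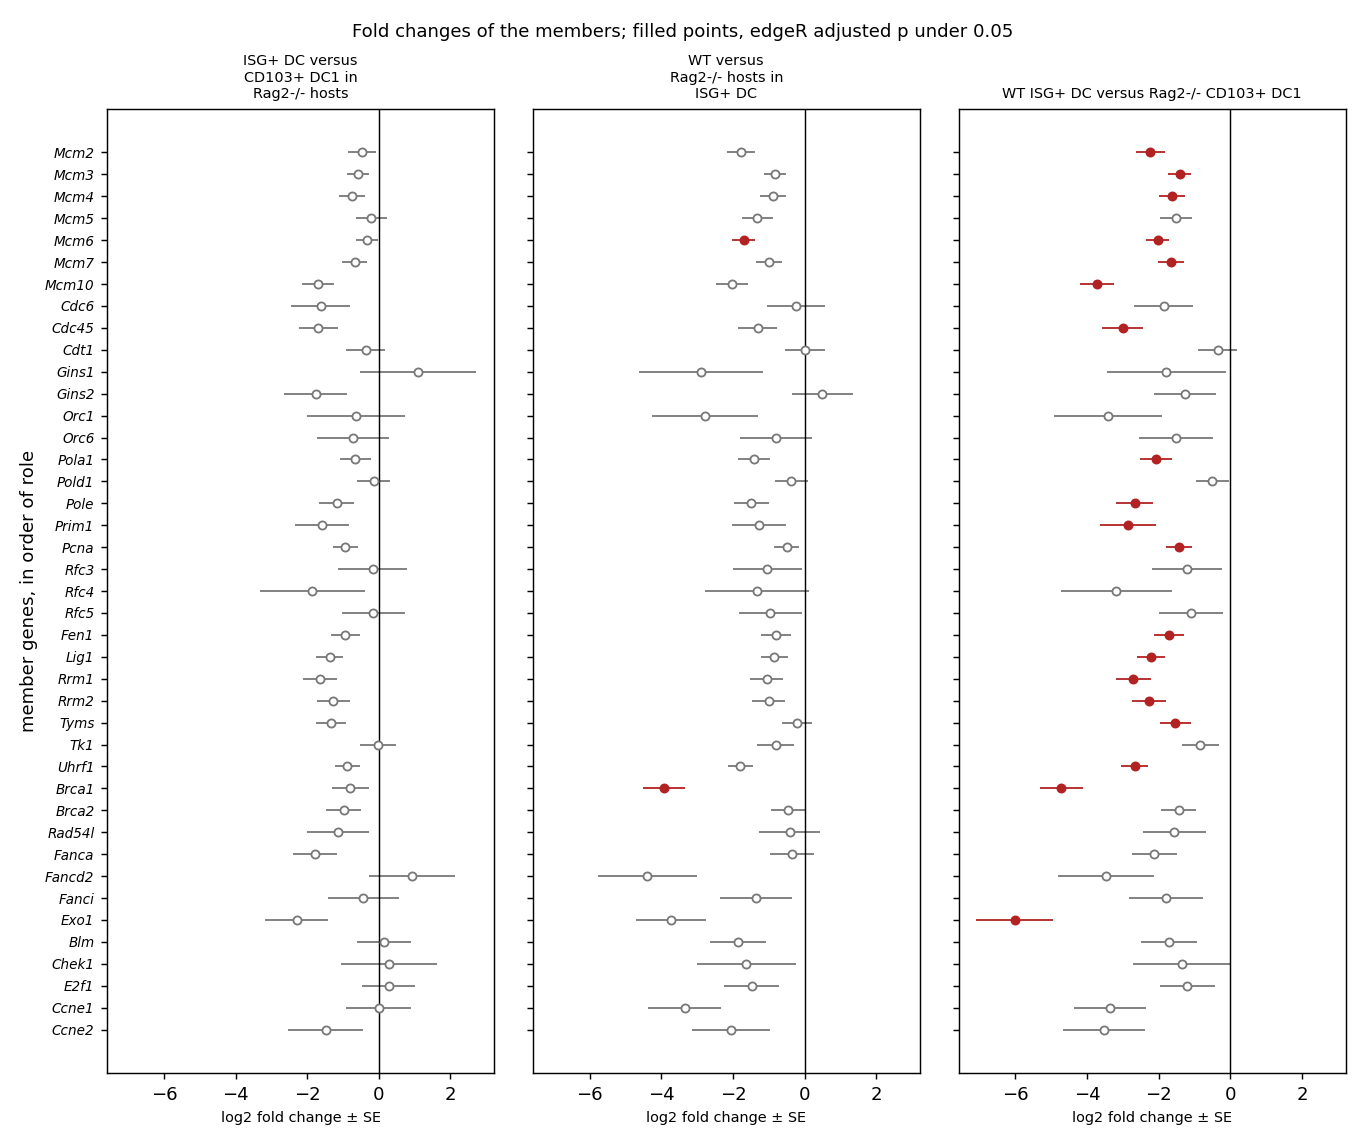
Log2 fold change of each member with its standard error (horizontal bar) in the 3 comparisons (panels), rows in order of role; filled red points had an edgeR adjusted p under 0.05. No point is filled for the populations in Rag2-/- hosts, 2 are filled for the hosts (Mcm6 and Brca1) and 19 for WT ISG+ DC against Rag2-/- CD103+ DC1.

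**Figure D3:**
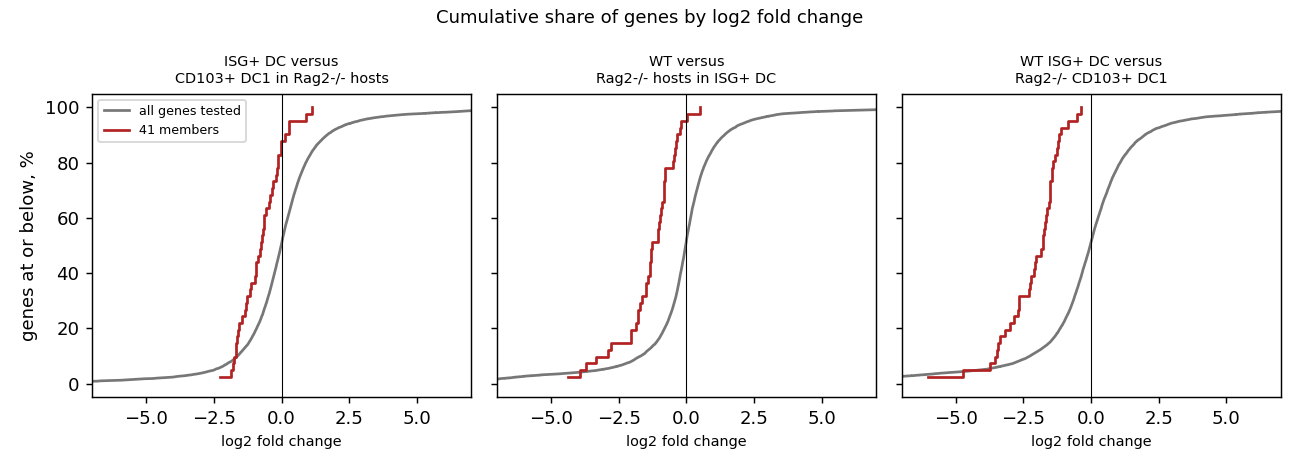
Share of genes (vertical axis, percent) at or below each log2 fold change (horizontal axis) for the 41 members in red and all 13223 genes tested in grey, in the 3 comparisons. The red line lies left of the grey one over most of its length, with medians of -0.75, -1.27 and -1.79 for members against -0.02, -0.03 and -0.03 for all genes.

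The 6 MCM2 to MCM7 genes, subunits of the replicative helicase ring, were lower in WT ISG+ DC than in either Rag2-/- group without overlap in each of the 6. Both WT libraries were below the other 4 in 26 of the 41 members (63.4%) and in 12.2% of all genes tested. Mcm2 stood at 112 and 133 CPM in CD103+ DC1, 72.1 and 106 in Rag2-/- ISG+ DC and 33.2 and 18.7 in WT ISG+ DC. Its WT libraries were far below the other 4, while the Rag2-/- groups lay close together. Mcm2 fell 4.72-fold in WT ISG+ DC against CD103+ DC1 (log2 -2.24 ± 0.40, edgeR adjusted p = 0.00619), and against Rag2-/- ISG+ DC its log2 value was -1.78 ± 0.40 (edgeR adjusted p = 0.0843). Mcm6 had 164 and 175, 110 and 162, then 44.4 and 38.8 CPM. Here the population values nearly met, and the gap lay between hosts. Mcm6 fell 3.26-fold in WT against Rag2-/- ISG+ DC (log2 -1.70 ± 0.32, edgeR adjusted p = 0.0492), a call that was lost in each of the 4 fits that left out a library of that comparison (edgeR adjusted p from 0.0776 to 0.269). Against CD103+ DC1 it fell 4.08-fold (log2 -2.03 ± 0.32, edgeR adjusted p = 0.00299).

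Mcm3 went from 207 and 180 CPM in CD103+ DC1 to 140 and 118 in Rag2-/- ISG+ DC and 88.8 and 56.4 in WT ISG+ DC, steps without overlap and of similar size. It fell 2.66-fold between the ends (log2 -1.41 ± 0.32, edgeR adjusted p = 0.0197). Mcm7 had 106 and 92.0, 53.1 and 71.1, then 32.0 and 30.7 CPM and fell 3.15-fold (log2 -1.66 ± 0.36, edgeR adjusted p = 0.0174). Mcm4, too, had no overlap between any groups, and it fell with a log2 value of -1.63 ± 0.37 (edgeR adjusted p = 0.0213). Mcm5 was the exception of the ring. Its CD103+ DC1 libraries were far apart at 128 and 64.7 CPM and enclosed the Rag2-/- ISG+ DC values of 75.0 and 91.6, with 23.5 and 43.5 in WT ISG+ DC. The log2 value of Mcm5 against CD103+ DC1 was -1.52 ± 0.45 and did not pass (edgeR adjusted p = 0.0641). Mcm5 did pass with upper-quartile scaling, without a low-count filter, in DESeq2 and in limma voom. It did not pass with RLE scaling or the compared groups alone. In the comparison of populations the 6 ring genes had log2 values between -0.75 and -0.21, and none of them had an unadjusted p under 0.05 in edgeR.

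Origin licensing and firing genes were more uneven. Mcm10, which helps to activate the loaded helicase and is not part of the ring, had 68.1 and 110 CPM in CD103+ DC1, 25.8 and 28.8 in Rag2-/- ISG+ DC and 6.88 and 6.49 in WT ISG+ DC. All 3 groups were far apart, and the ISG+ DC replicates were close. Mcm10 fell 13.3-fold in WT ISG+ DC against CD103+ DC1 (log2 -3.73 ± 0.48, edgeR adjusted p = 0.000947), while its log2 values were -1.70 ± 0.44 between populations and -2.03 ± 0.45 between hosts (edgeR adjusted p = 0.0678 and 0.0843). Cdc45, the helicase cofactor loaded at firing, had 46.5 and 63.7, 15.5 and 18.5, then 8.85 and 4.89 CPM. Its larger step lay between the populations, and it fell 8.0-fold between the ends (log2 -3.0 ± 0.57, edgeR adjusted p = 0.00844).

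Cdc6, the loader that recruits the MCM ring, had 31.0 and 25.4 CPM in CD103+ DC1, 14.1 and 4.16 in Rag2-/- ISG+ DC and 10.1 and 5.39 in WT ISG+ DC. Both ISG+ DC groups were below CD103+ DC1 and overlapped each other. Its log2 value against CD103+ DC1 was -1.62 ± 0.81 in Rag2-/- hosts and -1.86 ± 0.82 with WT hosts, and neither passed (edgeR adjusted p = 0.393 and 0.218). Orc1, the largest subunit of the origin recognition complex, was low throughout, with 5.45 and 13.5, 2.64 and 9.48, then 0.357 and 1.40 CPM. Its WT libraries, with 4 and 14 estimated counts, were below the other 4, and the log2 value between hosts was -2.78 ± 1.47 (edgeR adjusted p = 0.611). Of the other 4 genes of this role Cdt1, the licensing factor destroyed at the start of S phase, had the log2 value nearest 0 between CD103+ DC1 and WT ISG+ DC, -0.36 ± 0.55 (edgeR adjusted p = 0.785), with 17.9 to 26.9 CPM over the 6 libraries. Gins1 and Gins2, subunits of the GINS complex, went separate ways: Gins1 had 8.44 and 0.171 CPM in the CD103+ DC1 replicates, and overlapped both ISG+ DC groups, and Gins2 had its lowest group mean in Rag2-/- ISG+ DC. Orc6, a small subunit of the origin recognition complex, differed widely within the Rag2-/- groups, with 8.58 and 28.9 CPM for CD103+ DC1 replicates and 3.21 and 19.5 CPM for those of ISG+ DC.

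Among the polymerase genes Pole, Pola1 and Prim1 fell from CD103+ DC1 to WT ISG+ DC and Pold1 did not pass. Pole, the catalytic subunit of polymerase epsilon, had 68.4 and 94.7, 44.2 and 27.8, then 16.9 and 8.68 CPM. It decreased in both steps without overlap and fell 6.36-fold from CD103+ DC1 to WT ISG+ DC (log2 -2.67 ± 0.51, edgeR adjusted p = 0.00827). Pola1, the catalytic subunit of polymerase alpha, had 69.2 and 126 CPM in CD103+ DC1, 58.9 and 65.3 in Rag2-/- ISG+ DC and 29.6 and 17.1 in WT ISG+ DC. Its CD103+ DC1 replicates were further apart than the means of neighbouring groups, and it fell 4.18-fold between the ends (log2 -2.06 ± 0.45, edgeR adjusted p = 0.0167). Prim1, the primase that makes the RNA primer for polymerase alpha, fell with a log2 value of -2.85 ± 0.78 (edgeR adjusted p = 0.0483). Pold1, the catalytic subunit of polymerase delta, stayed between 24.4 and 49.0 CPM in all 6 libraries, with a log2 value of -0.51 ± 0.46 between the ends (edgeR adjusted p = 0.586).

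Pcna, the sliding clamp, had 142 and 189 CPM in CD103+ DC1, 63.9 and 109 in Rag2-/- ISG+ DC and 66.8 and 55.8 in WT ISG+ DC. Both ISG+ DC groups were below CD103+ DC1, and they overlapped each other. Pcna fell 2.69-fold from CD103+ DC1 to WT ISG+ DC (log2 -1.43 ± 0.36, edgeR adjusted p = 0.0315), with -0.93 ± 0.35 between populations and -0.49 ± 0.35 between hosts (edgeR adjusted p = 0.227 and 0.737). The clamp loader subunits Rfc3, Rfc4 and Rfc5 had log2 values between -3.19 and -1.10 against CD103+ DC1 and none passed. Rfc4 had 0 counts in WT ISG+ DC replicate 2 and 4.74 CPM in replicate 1. Fen1, the flap endonuclease, and Lig1, the ligase, finish Okazaki fragments. Fen1 had 80.8 and 96.8, 41.7 and 51.5, then 19.6 and 34.2 CPM, and Lig1 had 147 and 214, 52.4 and 87.1, then 45.9 and 31.9 CPM. Neither gene had overlapping groups, and in both the CD103+ DC1 libraries stood well above the rest. Lig1 fell 4.63-fold (log2 -2.21 ± 0.39, edgeR adjusted p = 0.00565) and Fen1 3.3-fold (log2 -1.72 ± 0.42, edgeR adjusted p = 0.0292) from CD103+ DC1 to WT ISG+ DC.

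Of the 4 nucleotide supply genes, 3 fell from CD103+ DC1 to WT ISG+ DC, and each of these had a lower log2 value between populations than between hosts. Rrm1, the large subunit of ribonucleotide reductase, had 90.4 and 201, 31.5 and 61.2, then 21.0 and 23.5 CPM. The CD103+ DC1 libraries were highest but far apart. Rrm1 fell 6.55-fold from CD103+ DC1 to WT ISG+ DC (log2 -2.71 ± 0.49, edgeR adjusted p = 0.00655). Rrm2, the small subunit made in S phase, had 74.3 and 58.9, 20.6 and 34.6, then 14.7 and 12.8 CPM and fell 4.84-fold (log2 -2.28 ± 0.48, edgeR adjusted p = 0.015). Tyms, thymidylate synthase, had 68.1 and 82.0 CPM in CD103+ DC1, 25.2 and 34.6 in Rag2-/- ISG+ DC and 23.2 and 28.6 in WT ISG+ DC. Its ISG+ DC groups overlapped, and the log2 value between hosts was -0.21 ± 0.41 (edgeR adjusted p = 0.971), while Tyms fell 2.89-fold against CD103+ DC1 with an edgeR adjusted p of 0.0488, a call lost without any one of CD103+ DC1 replicate 3, WT ISG+ DC replicate 1 or WT ISG+ DC replicate 2. Tk1, the thymidine kinase of the salvage route, had 30.4 and 28.6, 27.6 and 30.3, then 14.7 and 18.3 CPM. The populations of Rag2-/- hosts overlapped and both WT libraries were lower, and its log2 value between hosts was -0.81 ± 0.51 (edgeR adjusted p = 0.69).

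Uhrf1, which brings the maintenance methyltransferase DNMT1 to newly copied DNA, had 141 and 172 CPM in CD103+ DC1, 74.8 and 94.9 in Rag2-/- ISG+ DC and 29.9 and 19.1 in WT ISG+ DC. It decreased in both steps without overlap and fell 6.38-fold between the ends (log2 -2.67 ± 0.37, edgeR adjusted p = 0.00139). Between hosts its log2 value of -1.79 ± 0.36 missed the threshold (edgeR adjusted p = 0.0552).

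**Figure D4:**
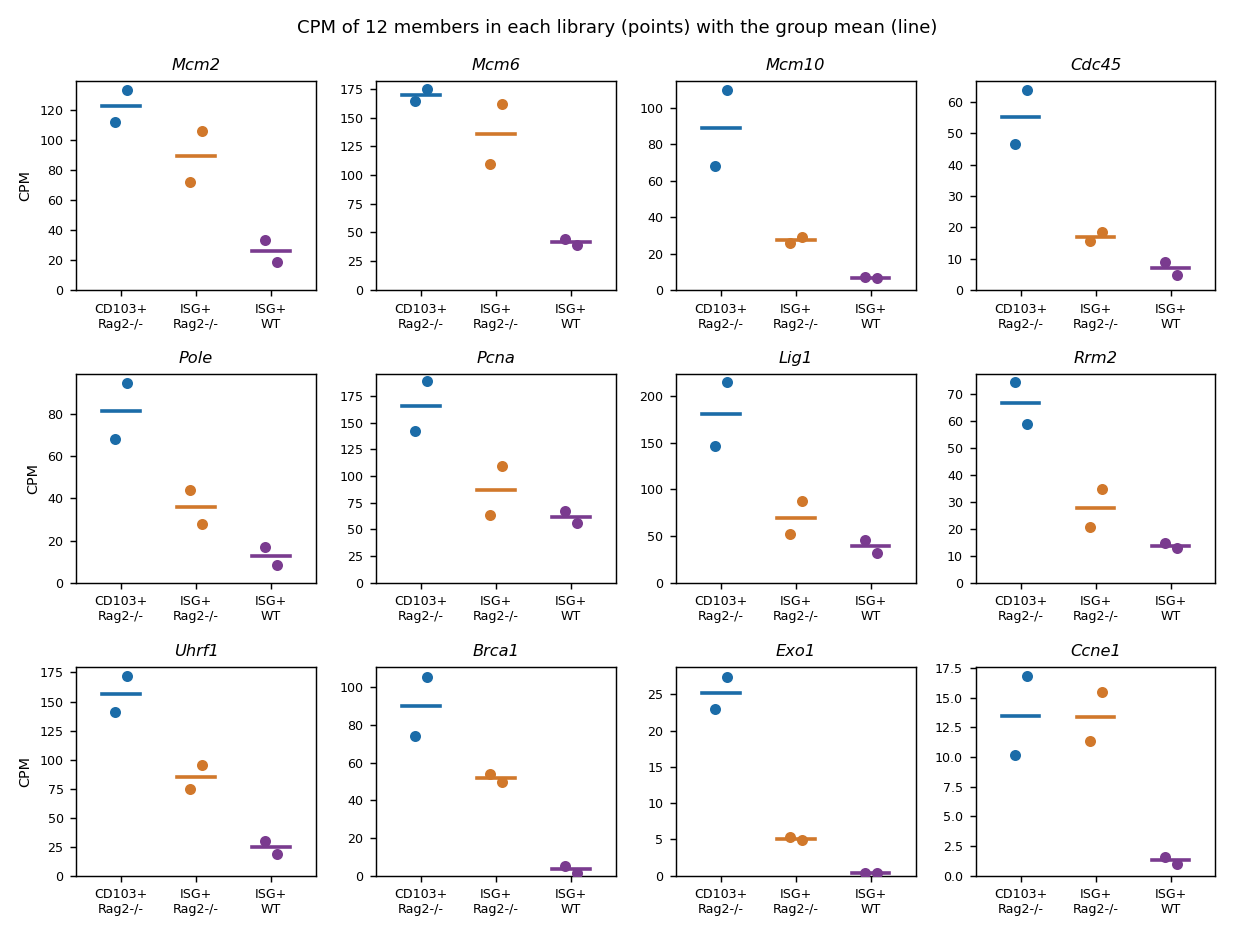
CPM of 12 members in each library (points, 2 per group) with the group mean (line), each panel on its own axis from 0. Mcm6, Brca1 and Ccne1 have their gap between WT ISG+ DC and the other groups, while Lig1, Rrm2, Pcna and Cdc45 have a wider gap between CD103+ DC1 and both ISG+ DC groups.

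The lowest log2 fold change of the 41 members belonged to a recombination or Fanconi gene in each comparison: Exo1 between populations and between the ends, and Fancd2 between hosts. Brca1, which directs breaks and stalled forks into homologous recombination, had 74.3 and 106 CPM in CD103+ DC1, 54.1 and 49.8 in Rag2-/- ISG+ DC and 5.18 and 1.60 in WT ISG+ DC. Both WT libraries, with 58 and 16 estimated counts, were far below the 4 Rag2-/- libraries. Brca1 fell 15.2-fold in WT against Rag2-/- ISG+ DC (log2 -3.93 ± 0.59, edgeR adjusted p = 0.0200) and 26.3-fold against CD103+ DC1 (log2 -4.72 ± 0.61, edgeR adjusted p = 0.000942). Between the populations its log2 value was -0.79 ± 0.51 (edgeR adjusted p = 0.539). The host call held in edgeR without any one library, with log2 values between -5.02 and -3.33, and in limma voom it missed the threshold (limma adjusted p = 0.0610).

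Exo1, the exonuclease that resects DNA ends, had 22.9 and 27.4, 5.29 and 4.96, then 0.357 and 0.399 CPM. Replicates were close in every group and no groups overlapped, but both WT libraries rested on 4 estimated counts. Exo1 fell from CD103+ DC1 to WT ISG+ DC with a log2 value of -6.02 ± 1.08 (edgeR adjusted p = 0.00595), and this call was lost in limma voom. Its log2 values were -2.29 ± 0.88 between populations and -3.72 ± 0.99 between hosts, and neither passed (edgeR adjusted p = 0.241 and 0.146). Brca2, a mediator of homologous recombination, differed from Brca1 in that its larger step lay between the populations, with 40 and 48.3, 22.6 and 22.2, then 17.3 and 15.3 CPM. Against CD103+ DC1 the log2 value of Brca2 in WT ISG+ DC was -1.44 ± 0.49 (edgeR adjusted p = 0.107), with no overlap between any groups. Whether Brca1 and Brca2 differ in their response to host was not tested. Rad54l, a motor protein of homologous recombination, had 20.1 and 20.9, 9.19 and 9.33, then 11.0 and 2.89 CPM. Its Rag2-/- replicates were almost equal while the WT libraries lay on both sides of Rag2-/- ISG+ DC, and none of its 3 comparisons passed (edgeR adjusted p from 0.339 to 0.972).

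Of the Fanconi genes, which repair crosslinks between strands, none passed in any comparison in the main edgeR fit. In DESeq2, and in edgeR without a low-count filter, Fancd2 was called lower between hosts. Both settings also called Fanca and Fancd2 lower from CD103+ DC1 to WT ISG+ DC. Fancd2 was the only member whose Rag2-/- ISG+ DC libraries were both above CD103+ DC1, at 17.4 and 32.2 CPM against 9.38 and 17.0, and it had 2.32 and 0 CPM in WT ISG+ DC. Its log2 value between hosts was -4.39 ± 1.39 (edgeR adjusted p = 0.25). Fanca went from 35.8 and 54.5 CPM in CD103+ DC1 to 10.1 and 16.1 in Rag2-/- ISG+ DC, with overlap between the hosts, and Fanci decreased in both steps without overlap at 1.70 to 13.4 CPM. Blm, the helicase that dissolves recombination intermediates, had 28.1 and 16.1, 23 and 26, then 2.68 and 10.9 CPM. Only the WT libraries were below the rest, and Blm did not pass (edgeR adjusted p = 0.451 between hosts).

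The 4 genes of S phase entry and checkpoint had a median log2 fold change of 0.13 between populations, with values from -1.48 to 0.28 and 2 of 4 below 0, and 0 of 4 passed in any comparison by edgeR. Ccne1 and Ccne2 encode the E cyclins that drive the start of S phase. Ccne1 had 10.2 and 16.8, 11.3 and 15.5, then 1.61 and 0.998 CPM, and Ccne2 had 17.1 and 24.3, 7.87 and 6.93, then 3.13 and 0.399 CPM. For Ccne1 the populations of Rag2-/- hosts overlapped fully and only the WT libraries were low, with 18 and 10 estimated counts, whereas Ccne2 decreased in both steps. The log2 value of Ccne1 between hosts was -3.35 ± 1.01 (edgeR adjusted p = 0.22) and that of Ccne2 -2.06 ± 1.09 (edgeR adjusted p = 0.61). E2f1, the transcription factor that activates many of these genes, had 32.0 and 9.76 CPM in CD103+ DC1, 17.7 and 33.2 in Rag2-/- ISG+ DC and 12 and 6.29 in WT ISG+ DC. Its CD103+ DC1 replicates were far apart and overlapped both other groups, and no comparison passed (edgeR adjusted p from 0.405 to 0.923). Chek1, the kinase that restrains origin firing when forks stall, had 0.798 to 12.6 CPM, with overlap between hosts.

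Replicates of a group were not equal in these genes. In Rag2-/- ISG+ DC 33 of 41 members were higher in replicate 3 than in replicate 2, with a median log2 difference of 0.45 (-0.03 over all genes tested), and in CD103+ DC1 25 were higher in replicate 3, with a median of 0.26 (-0.11). In WT ISG+ DC 29 members were lower in replicate 2 than in replicate 1, with a median of -0.58 (-0.01). These shifts are part of the spread on which each test rests.

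Other genes of the same processes were taken from lists of 54 replication genes and 53 repair genes that contain no member. In the replication list 0 of 54 passed between the populations and 0 between the hosts by edgeR. At an unadjusted p under 0.05, 9 were lower and 0 higher between populations, against 6.11% and 8.8% of all genes tested. Between hosts 7 were lower and 1 higher, against 5.32% and 4.56%. From CD103+ DC1 to WT ISG+ DC the median log2 fold change was -1.18. There 8 fell and 1 rose, against 3.62% and 5.52% of all genes. Those with the smallest p were Chaf1a, a subunit of the histone chaperone CAF-1 that packages new DNA, Timeless, a component of the fork protection complex, and Topbp1, an activator of the ATR kinase. Chaf1a had 127 and 239 CPM in CD103+ DC1, 61.7 and 57.4 in Rag2-/- ISG+ DC and 7.86 and 20.9 in WT ISG+ DC, without overlap (log2 -3.67 ± 0.52, edgeR adjusted p = 0.00168). Timeless fell with a log2 value of -2.55 ± 0.43 (edgeR adjusted p = 0.00457) and Topbp1 with -1.70 ± 0.32 (edgeR adjusted p = 0.00827). The gene that rose, Samhd1, which breaks deoxynucleotides down, had 955 and 898, 1167 and 1159, then 1704 and 1746 CPM (log2 0.90 ± 0.20, edgeR adjusted p = 0.0208). It was named after its value was seen.

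In the repair list 0 of 53 passed between the populations and 0 between the hosts by edgeR, with 6 lower and 1 higher and then 5 lower and 0 higher at an unadjusted p under 0.05. From CD103+ DC1 to WT ISG+ DC 5 fell and 0 rose, against 3.62% and 5.52% of all genes tested. At an unadjusted p under 0.05, 11 were lower and 0 higher there, against 10.7% and 11.2%. Rad54b, a relative of Rad54l, fell with a log2 value of -5.31 ± 1.15 (edgeR adjusted p = 0.0167), but its WT libraries rested on 2 and 9 estimated counts. Rad50, a subunit of the MRN complex that binds broken DNA ends, fell with -1.73 ± 0.40 (edgeR adjusted p = 0.0217). The 8 genes of end joining, a repair route that needs no copied template, had 0 calls in each of the 3 comparisons by edgeR. They also had 0 at an unadjusted p under 0.05. Of all genes tested, edgeR called 0.862%, 0.265% and 3.62% lower and 2.83%, 0.287% and 5.52% higher in these comparisons. At an unadjusted p under 0.05, 6.11%, 5.32% and 10.7% were lower and 8.8%, 4.56% and 11.2% higher. With 8 genes, 0 calls do not set end joining apart from all genes. Their median log2 fold changes were 0.41, -0.15 and -0.35.

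A list of 20 genes of mitosis, none of them members, had a summed level of 3182 and 4503 CPM in CD103+ DC1, 1481 and 1357 in Rag2-/- ISG+ DC and 506 and 351 in WT ISG+ DC. By edgeR 2 of 20 fell between populations (Mki67 and Top2a), 2 between hosts (Kif20a and Mki67) and 11 from CD103+ DC1 to WT ISG+ DC. Of all genes tested, 0.862%, 0.265% and 3.62% were called lower in these comparisons. In the list 0 rose in any. The median log2 fold changes were -1.23, -1.79 and -2.85. Mki67, the proliferation antigen Ki-67, had 1374 and 2291, 531 and 492, then 198 and 153 CPM. Every group was apart from the next, and Mki67 fell both between populations (log2 -1.84 ± 0.29, edgeR adjusted p = 0.00511) and between hosts (log2 -1.54 ± 0.28, edgeR adjusted p = 0.0467).

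**Figure D5:**
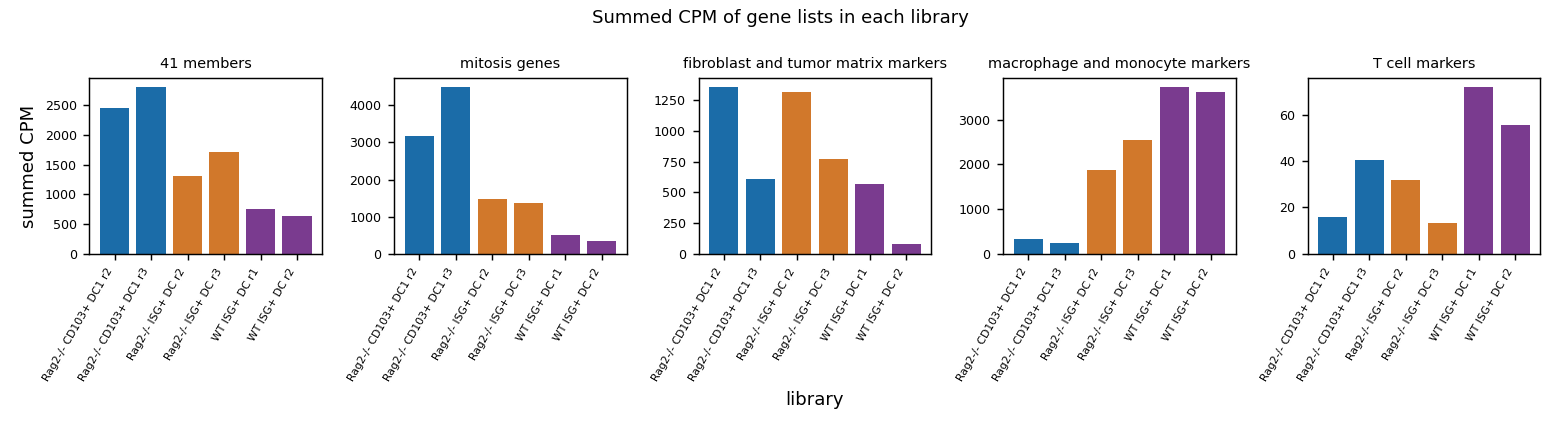
Summed CPM of the 41 members, the 20 mitosis genes and the markers of 3 other cell types in each library (bars from 0, each panel on its own axis; blue CD103+ DC1, orange Rag2-/- ISG+ DC, purple WT ISG+ DC). By group mean, members and mitosis genes descend from left to right and macrophage and monocyte markers ascend. Fibroblast and tumor matrix markers are lowest in WT ISG+ DC replicate 2 at 78.8 CPM.

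Markers of other cell types also differed between the groups. The 14 fibroblast and tumor matrix markers summed to 1359 and 608 CPM in CD103+ DC1, 1315 and 772 in Rag2-/- ISG+ DC and 568 and 78.8 in WT ISG+ DC, so both WT libraries were below the 4 Rag2-/- libraries. By edgeR 0 of the 14 passed between populations, with 0 lower and 1 higher at an unadjusted p under 0.05, and 0 passed between hosts, with 5 lower and 0 higher. From CD103+ DC1 to WT ISG+ DC 3 fell (Col5a1, Col6a1 and Pdgfra). Among all genes tested, edgeR called 0.862%, 0.265% and 3.62% lower and 2.83%, 0.287% and 5.52% higher in these comparisons. At an unadjusted p under 0.05 in edgeR, 6.11% were lower and 8.8% higher between populations. Between hosts these shares were 5.32% and 4.56%. In WT ISG+ DC replicate 2 Dcn, Lum, Pdgfra and Lox were at 0, while Col1a1 had 19.9 CPM. Of the 9 macrophage and monocyte markers 7 rose between populations, 0 between hosts (6 higher at an unadjusted p under 0.05 in edgeR, 0 lower) and 8 from CD103+ DC1 to WT ISG+ DC. Their sums were 334 and 240, 1875 and 2550, then 3741 and 3619 CPM, with Ly6c2 at 0 in CD103+ DC1 replicate 3. The 10 T cell markers summed to 13.1 to 40.6 CPM in Rag2-/- libraries and to 72.1 and 55.7 CPM in WT libraries, and Cd2 was the 1 T cell marker that rose from CD103+ DC1 to WT ISG+ DC by edgeR. Cd2, an adhesion receptor of T and NK cells, had 0 and 0, 2.58 and 3.94, then 10.9 and 17.2 CPM. Bcl11b, a T lineage transcription factor, had 30.7 and 12.9 CPM in WT libraries and 2.04 to 23.3 in Rag2-/- libraries. Lat was at 0 in all 6 libraries and Cd3e had at most 0.499 CPM. The part of these cell types in the levels of the members was not tested.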

How the data were processed

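The deposited table holds estimated counts per gene symbol, 1 column per library, not normalized, and 16.1% of its values are not whole. Bowtie 1.2.3, RSEM 1.3.1 and the build mm9 are named, per the submitters' processing notes, and no label names the annotation or strand setting. RSEM divides reads shared between similar genes by a model, and 17 members had a count that was not whole. Per the labels' protocols a stranded total RNA kit for low input was used, while the labels' molecule field names polyA RNA.

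The estimated counts were rounded and tested with edgeR 4.0.16 (R 4.3.3), in 1 quasi-likelihood fit of the 6 libraries in 3 groups. Genes were filtered by filterByExpr, scaled by TMM and tested two-sided, with Benjamini-Hochberg adjustment over 13223 genes and a threshold of 0.05. Each gene had 3 residual and 7.34 prior degrees of freedom. Alternatives were RLE and upper-quartile scaling, no filter, DESeq2 1.42.0, limma 3.58.1 (voom), the compared groups alone, a replicate block, pooled ISG+ DC and leaving out each library. The scripts were tested on simulated data. Reads carry no molecular identifiers in the labels, so counts are not independent molecules.

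Members and lists were chosen with earlier results of these data known. Of 228 entries in the other lists 227 were found. Given library by library were the 14 passing members with the smallest p in the comparison with the most calls and 16 members set by name, 24 in all, and any further ones were named after their values were seen. Of each other list up to 3 genes with the smallest p were eligible. One gene that this rule takes in is not reported here.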

Additional observations from a re-analysis of the deposited data

How the results depend on the processing

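No member was called higher in any analysis, and no direction of a called member reversed. Between the populations, where edgeR called 0 members lower, the count was 3 without a low-count filter, where 416 of 16422 genes were called lower. It was 6 in DESeq2 (3.02% of all genes) and 3 in limma voom (1.75%). Pooling ISG+ DC of both hosts gave 20 calls and a members' median log2 fold change of -1.35, with 496 of 13223 genes called lower. That contrast also carries the difference between hosts, so it does not compare the populations alone. Leaving out 1 library gave 0 to 5 calls and medians from -1.03 to -0.60. With the replicate block the count was 3 (Lig1, Mcm10 and Rrm1), in a fit that called 234 of 12658 genes lower. The deviations of same-numbered libraries correlated at 0.0214 over 13223 genes. With 2 pairs this value cannot show whether same-numbered libraries came from the same tumors, and no best match of numbers was tested. Between the hosts, with 2 calls, 35 of all 13223 genes were called lower. The count was 1 with RLE scaling (32 of 13223 genes called lower) and 8 without a filter (287 of 16422). It was 8 in DESeq2 (281 of 13223) and 4 with the compared groups alone (169 of 12359). Leaving out 1 library gave medians of the members from -1.43 to -0.87. From CD103+ DC1 to WT ISG+ DC, with 19 calls, the count was 19 to 25 with RLE or upper-quartile scaling, no filter or DESeq2. It was 18 in limma voom and 13 with the compared groups alone. All genes called lower numbered 479 in the main fit and 499 to 1002 with those scalings, no filter or DESeq2. They numbered 482 in limma voom and 253 with the compared groups alone. Leaving out 1 library gave 12 to 23 calls and medians from -2.50 to -1.86. A lone library in such a fit is assumed to vary like the other groups. The cause of these changes was not tested. Groups of 2 and members under about 10 CPM in WT ISG+ DC limit the precision, since Orc1, Exo1, Ccne1, Ccne2, Gins1, Rfc4 and Fancd2 rest on few reads there.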

Other observations

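A list of 27 E2F and G1 regulators, none of them members, had 25 genes tested. E2F family genes with a log2 value below 0 were 7 of 9 between populations, 5 between hosts and 8 between the ends. For cyclins and kinases these counts were 3, 8 and 6 of 8, and for pocket proteins 1 of 3 in each. For CDK inhibitors they were 3, 3 and 2 of 5. Of all genes tested, 50.7%, 51.5% and 51.2% were below 0. By edgeR 2 regulators rose between populations. Ccnd2, the D-type cyclin that links growth signals to the cell cycle, had 164 and 92.2 CPM in CD103+ DC1, 799 and 848 in Rag2-/- ISG+ DC and 317 and 239 in WT ISG+ DC. It was highest in Rag2-/- ISG+ DC and rose between populations (log2 2.68 ± 0.32, edgeR adjusted p = 0.00143), while its log2 value between hosts was -1.57 ± 0.31 (edgeR adjusted p = 0.0516). Cdkn1a, the p21 inhibitor of cyclin-dependent kinases, had 49.7 and 20.2, 103 and 192, then 189 and 196 CPM. Both ISG+ DC groups were above CD103+ DC1, and Cdkn1a rose between populations (log2 2.06 ± 0.45, edgeR adjusted p = 0.0316) and from CD103+ DC1 to WT ISG+ DC (log2 2.45 ± 0.46, edgeR adjusted p = 0.00746). E2f8, a repressor of the E2F family made in S phase, had 99.1 and 191, 64.0 and 62.6, then 32.4 and 17.2 CPM and fell from CD103+ DC1 to WT ISG+ DC (log2 -2.55 ± 0.45, edgeR adjusted p = 0.00568). Ccna2, the cyclin of S phase and G2, fell in the same comparison (log2 -5.28 ± 1.13, edgeR adjusted p = 0.0153), with 71.1 and 80.8, 31.2 and 48.1, then 3.84 and 0 CPM. By edgeR 0 genes of the list fell and 2 rose between populations, against 0.862% and 2.83% of all genes tested. Between hosts 0 fell and 0 rose, against 0.265% and 0.287%. At an unadjusted p under 0.05 in edgeR, 5 were lower and 0 higher there, against 5.32% and 4.56%. Between the ends 2 fell and 2 rose, against 3.62% and 5.52%.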
